A study of Mus musculus with 12 samples.

Results

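Mouse cortex that lacks both copies of Mir137, the gene of the microRNA miR-137, was compared gene by gene with wild-type cortex. All gene entries of the deposited table of knockout (KO) against wild type (WT) were taken, 23951 of 23951. Many of the genes named below were chosen by how they moved, and the rules are given with the processing. The comparison rests on 8 of the 12 libraries of the study, 4 labelled wildtype and 4 labelled miR-137 KO. The other 4 libraries, labelled miR-137/+ (Het), carry 1 intact copy and are set beside KO where they help to read a value. All mice were of the C57BL/6 strain and the tissue was dissected cortex. The age of the mice, and how and in which cells the gene was deleted, were not stated in the labels. No treatment is named in the labels.

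MicroRNAs are short RNAs that guide Argonaute proteins to messenger RNAs, mostly through base pairing of the seed near their 5′ end with the 3′ untranslated region (UTR). Pairing lowers the stability or the translation of the message, so that losing a microRNA can raise its direct targets. miR-137 is enriched in brain, is known for roles in neuronal maturation, dendrites and synapses, and its human locus is associated with schizophrenia. Pde10a, which the title of the study names, makes an enzyme that degrades both cyclic nucleotides and is enriched in the projection neurons of the striatum.

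The mature microRNA is shown first because every site described here is read from its seed. In RefSeq (GRCm38.p6) it lies on the plus strand at chr3:118433901-118433923, is 23 nucleotides long, and has the seed at bases 2 to 8, in capitals.
mmu-miR-137-3p: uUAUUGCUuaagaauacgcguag

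Messages that pair with this seed hold AGCAATAA (an 8mer), AGCAATA (a 7mer-m8) or GCAATAA (a 7mer-A1). The lines that follow give such sites in the longest annotated 3′ UTR (GENCODE M21, GRCm38) of genes that the results return to, each with the letters just before the site and the match in capitals. Pde10a, Ezh2, Esrra, Wbp1l, Nsf and Grin2a are published targets of miR-137 that were called different in KO. Ybx3, Ybx1 and Raver2 are 3 of the 5 genes with an 8mer that rose most, and were chosen after their values were seen.
Pde10a, chr17:8986249-8986255, plus strand: gtaaagtgcgcaagtGCAATAA
Ezh2, chr6:47530330-47530336, minus strand: taccagtgagtttttGCAATAA
Esrra, first site, chr19:6911259-6911266, minus strand: ttgcccccccttgaAGCAATAA
Esrra, second site, chr19:6911150-6911157, minus strand: tctatgccctgcagAGCAATAA
Wbp1l, chr19:46657258-46657265, plus strand: atatgtgtattttaAGCAATAA
Nsf, chr11:103821801-103821807, minus strand: gcaaattgaaggaatGCAATAA
Grin2a, first site, chr16:9577540-9577546, minus strand: tgactgggtatggcgGCAATAA
Grin2a, second site, chr16:9577415-9577421, minus strand: ctctaatacagaataAGCAATA
Ybx3, chr6:131365317-131365324, minus strand: caaagaaacatctaAGCAATAA
Ybx1, chr4:119278322-119278329, minus strand: gaatatgaaattccAGCAATAA
Raver2, first site, chr4:101150631-101150638, plus strand: ccaaatacccacctAGCAATAA
Raver2, second site, chr4:101150784-101150791, plus strand: tatataaagtctgaAGCAATAA

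Expression is given as the authors' RPKM, reads scaled by transcript length and library size, with 1 value per genotype in which the libraries are pooled. A pooled value carries no SD, and how deeply each library was read is unknown. A gene rose or fell where q, the p-value that the authors adjusted over all genes tested, was below 0.05, and was measured where WT or KO reached 1 RPKM. Genes said to rise or fall without a q had the smallest that the authors' deposited table holds, 0.000987. Log2 folds are differences of log2(RPKM + 1), KO minus WT, which understates the change of low genes; plain ratios are called fold. The protocol speaks of duplicated samples and the titles number the libraries in pairs. Whether each library is a separate animal is not said, so q reflects only how much these libraries vary, which may be technical.

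The labelled tissue was checked against its markers. All 7 defining markers of cortical excitatory neurons were measured, and 1 rose and 1 fell. Their summed level was 758 RPKM in WT and 568 in KO. Most of this sum came from the marker that fell, Slc17a7, at 575 and 393 RPKM. All 6 defining markers of striatal projection neurons rose, from a sum of 31.7 RPKM to 316, and all 5 of choroid plexus fell, from 2060 to 87.0. Of 5 neutrophil markers 2 fell, with sums of 64.8 and 3.79 RPKM, while Camp and Mpo stayed below 1 RPKM in both genotypes. Of 5 meningeal markers 2 fell (sums of 88.2 and 67.3), and of 3 thalamic markers 1 fell (15.6 and 9.30). Microglial markers rose in 2 of 3 (64.3 and 72.5) and endothelial markers in 1 of 3 (44.3 and 59.5), and 0 fell in either. All 4 hypothalamic and all 3 midbrain markers lay below 1 RPKM in both genotypes, and no defining marker was listed at 0 in both. In bulk tissue fewer cells of a type and less RNA per cell cannot be told apart, and the part these marker levels have in other results was not tested.

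**Figure D1:**
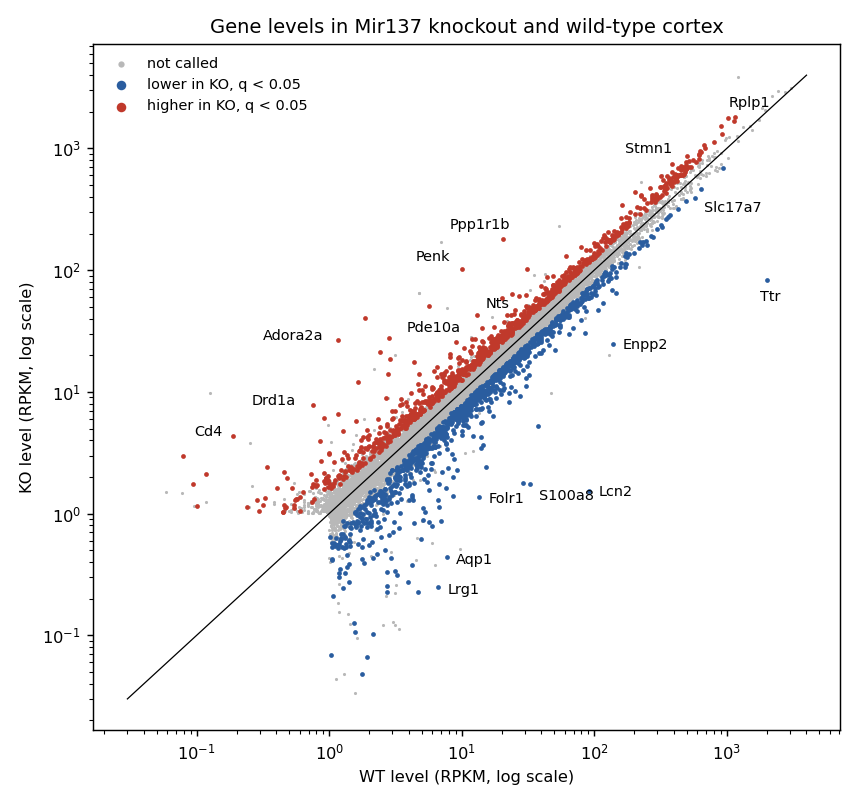
Pooled level of each measured gene in WT (x axis) and KO (y axis), both in RPKM on a log scale, with genes that rose in red, genes that fell in blue and a line of equal levels; entries listed at 0 in either genotype have no place on a log axis. Striatal genes such as Adora2a (1.17 RPKM in WT, 26.4 in KO) lie far above the line, and Ttr (2028 and 83.6) and Lcn2 (91.7 and 1.54) far under it.

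Mir137 itself was listed at 0 in all 3 genotypes. Libraries of messenger RNA are not made to hold RNAs as short as a mature microRNA, so this entry checks no genotype label. Dpyd, the neighbouring gene, which encodes the first enzyme of pyrimidine breakdown, stood at 3.61 RPKM in WT and 3.16 in KO (q = 0.492 in the authors' deposited table).

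Pde10a rose from 12.7 RPKM in WT to 27.3 in KO, 2.15-fold, and its Het level was 35.2. Its 3′ UTR holds a single 7mer-A1, printed above. All 6 defining striatal markers rose as well, and what part the site or striatal RNA had in the rise of Pde10a was not tested. Pde10a was 1 of 5 genes that rose among 33 measured published targets of miR-137, against 5 that fell. Over all 13655 measured genes 6.82% rose and 7.65% fell. The median log2 fold of the targets was -0.02, beside 0.01 for all measured genes.

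The other published targets that rose were a mixed group. Esrra, a nuclear receptor that drives genes of mitochondrial energy metabolism and holds 2 8mers, rose from 14.4 to 23.5 RPKM. Wbp1l, a membrane protein with 1 8mer, rose from 12.3 to 17.8. Ezh2, the histone methyltransferase of polycomb repressive complex 2, rose from 4.52 to 6.596 RPKM (q = 0.0130 in the authors' deposited table). Nr4a2, an orphan nuclear receptor that is also an immediate early gene, rose from 10.8 to 18.0 RPKM, and its 3′ UTR held no site.

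Among the targets that fell, Ptgs2, the inducible prostaglandin synthase, went from 6.75 to 1.74 RPKM and held no site. Grin2a, a subunit of the NMDA receptor, fell from 9.33 to 5.52 RPKM, and its 3′ UTR holds 2 sites. Nsf, the ATPase that takes apart fusion complexes at synaptic vesicles, fell from 327 to 227 RPKM (q = 0.00179 in the authors' deposited table). Dapk1, a death-associated kinase with no site, and Mib1, a ubiquitin ligase of Notch signalling, fell with log2 folds of -0.33 and -0.35 (q = 0.0287 and 0.0306 in the authors' deposited table). Syt1 and Cplx1, which sense calcium and clamp fusion, had log2 folds of -0.35 and 0.00 (q = 0.1005 and 0.995 in the authors' deposited table).

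Seed sites were then counted across all genes. A 3′ UTR was found for 12879 measured genes with a single name, 94.6% of these. Of 592 genes with an 8mer, 10.6% rose and 6.76% fell, and their median log2 fold was 0.03. Genes with no site numbered 10808, of which 6.94% rose and 7.78% fell, with a median of 0.01. In the weaker 7mer-m8 class 5.25% of 800 genes rose and 9.38% fell, with a median of -0.04. These genes had a median 3′ UTR length of 2722 nucleotides, and this class was not compared on its own at like lengths. Of 679 genes with a 7mer-A1 only, 6.92% rose and 7.81% fell. Among all 2071 genes with any site 7.34% rose and 8.11% fell, with a median of -0.01. Among 360 genes with 2 or more sites 9.17% rose and 10% fell, with a median of -0.03. Their median 3′ UTR length was 3496.5 nucleotides, and they were not compared at like lengths.

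Genes with an 8mer have long 3′ UTRs, with a median of 2566 nucleotides against 1066 in genes with no site, and the folds fell with that length. Genes were therefore put into 4 bins of equal number by 3′ UTR length. Over all genes with a 3′ UTR the median log2 fold was 0.12 in the bin with the shortest 3′ UTRs and -0.07 in the bin with the longest. Within each bin the share of 8mer genes that rose was above that of genes with no site. From the shortest bin to the longest it was 21.6% against 10.96%, 22.4% against 6.64%, 9.93% against 4.397% and 6.58% against 4.68%. The shares that fell were 5.41% against 4.90%, 1.18% against 6.85%, 4.64% against 8.27% and 9.40% against 12.6%, so that in the bin with the shortest 3′ UTRs the share of 8mer genes was the higher one. The 8mer genes in these bins numbered 37, 85, 151 and 319. Genes with any site, 7mers included, had a higher median log2 fold than genes with no site in each bin. From the shortest bin to the longest these medians were 0.15 against 0.12, 0.08 against 0.02, 0.01 against -0.03 and -0.06 against -0.08. Over all lengths together the order was the other way, at -0.01 with any site against 0.01 with no site. These bins were chosen after seeing the data, and the differences between the shares or medians were not tested.

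**Figure D2:**
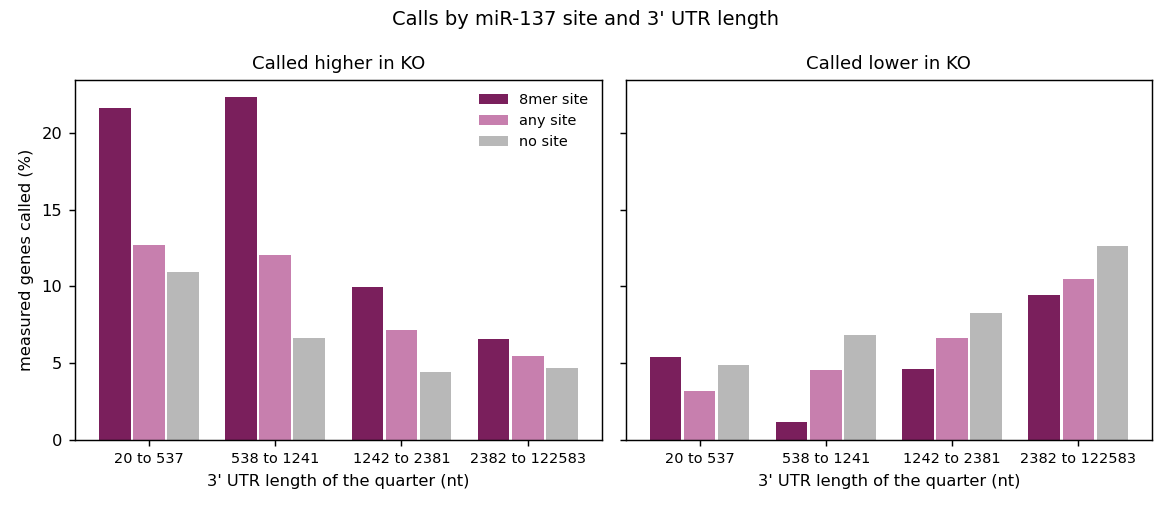
Bars give the percent of measured genes that rose (left) and fell (right) in KO, for genes with an 8mer, any miR-137 site or no site in the 3′ UTR, in 4 bins of 3′ UTR length in nucleotides. The bars for rises of 8mer genes run from 6.58% to 22.4% and those for falls from 1.18% to 9.40%.

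The 8mer gene that rose most was Ybx3, a cold shock protein that binds messenger RNA, at 24.2 RPKM in WT, 37.7 in Het and 63.5 in KO. Its relative Ybx1, which packages messages and controls their translation, stood at 161, 244 and 341 RPKM. Raver2, a partner of the splicing regulator Ptbp1, rose from 17.6 to 34.4 RPKM (q = 0.00729 in the authors' deposited table), and Car7, a neuronal carbonic anhydrase, from 8.21 to 16.1. These 4 genes were named after their values were seen. For both Ybx3 and Ybx1 the Het level lay between those of WT and KO.

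In the whole comparison 931 measured genes rose and 1044 fell. Most changes were small, since 559 of the rises and 540 of the falls were under 1.5-fold. At least 4-fold changes numbered 27 up and 57 down. Rises were frequent among abundant genes, at 20.6% of the 836 genes with a mean of 100 RPKM or more, and 14.1% of 764 such genes without those of ribosomal proteins. Of 3999 genes under 5 RPKM, 4.93% rose and 8.73% fell. Gene groups showed where the changes lay, and of 138 lists 20 held only rises, 19 only falls, 95 both and 4 neither.

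**Figure D3:**
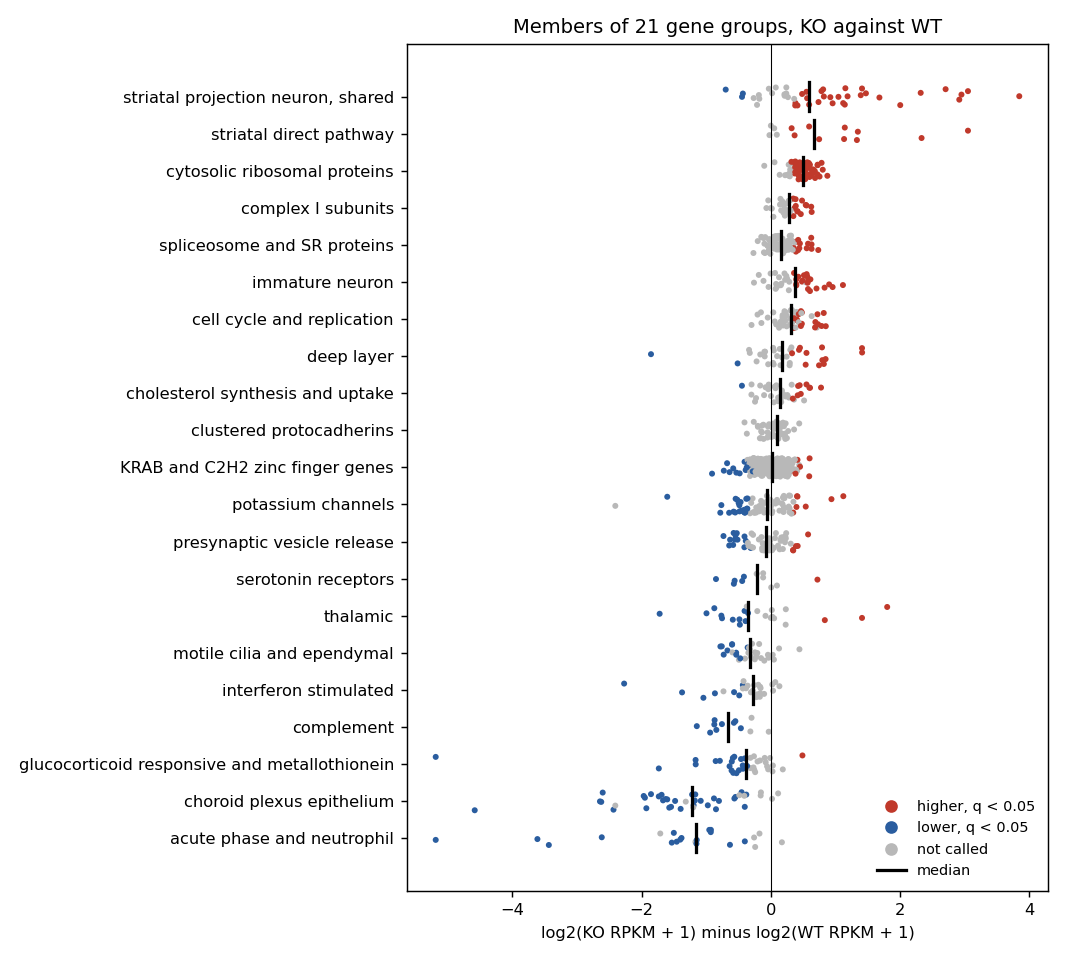
Log2 fold (KO minus WT, of RPKM + 1) of each measured member of 21 gene lists, with members that rose in red, members that fell in blue and the list's median as a black bar. The medians of shared striatal genes, cytosolic ribosomal proteins and immature neuron genes lie at 0.60, 0.50 and 0.38, and those of choroid plexus and acute phase genes at -1.22 and -1.16.

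Genes of striatal projection neurons stood among the largest rises. These are the inhibitory output neurons of the striatum, which read dopamine and cortical glutamate through cyclic AMP. Of 45 measured genes shared by both kinds of striatal projection neuron, 29 rose and 3 fell, with a median log2 fold of 0.60. Ppp1r1b, the gene of DARPP-32, a phosphatase inhibitor under dopamine control, stood at 20.6 RPKM in WT and 179 in KO. Rgs9, which speeds the shutdown of G-protein signals downstream of dopamine receptors, rose 8.95-fold, from 5.62 to 50.3 RPKM.

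Both output pathways were represented. In the direct pathway 10 of 14 genes rose and 0 fell, led after Ppp1r1b by the D1 dopamine receptor gene Drd1a, from 0.755 to 7.87 RPKM. The peptide precursors Pdyn and Tac1, for dynorphin and substance P, went from 4.66 to 11.5 and from 11.9 to 27.3 RPKM. In the indirect pathway 5 of 15 rose and 0 fell. They included Adora2a, the adenosine receptor of these cells, at 1.17 and 26.4 RPKM, the enkephalin precursor Penk at 10.1 and 103, and the D2 dopamine receptor Drd2 at 1.65 and 12.1.

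The 3 shared striatal genes that fell were as follows. The calcium sensor Hpca, hippocalcin, fell from 938 to 689 RPKM (q = 0.0184 in the authors' deposited table), and Dgkb, a diacylglycerol kinase, from 31.5 to 23.1 (q = 0.00446 in the authors' deposited table). The third was Rin1, a Ras effector, at 11 and 6.40 RPKM, named after its value was seen. Phactr1, Cnr1 and Camkk2 had log2 folds of 0.02, -0.26 and 0.22 (q = 0.945, 0.129 and 0.224 in the authors' deposited table).

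Second messenger genes moved in both directions. Of 18 measured phosphodiesterases 3 rose and 1 fell: Pde1b, activated by calmodulin, from 31.3 to 103 RPKM, Pde7b from 3.46 to 8.71 and Pde10a rose. Pde2a and Pde1a had log2 folds of 0.22 and -0.24 (q = 0.242 and 0.189 in the authors' deposited table). Among cyclases and cyclic nucleotide kinases 4 of 45 rose and 7 fell. These are 8.89% and 15.6%, against 6.82% and 7.65% of all measured genes. Adcy5, the main striatal adenylyl cyclase, rose from 23.7 to 42.4 RPKM, and Adcy9 fell from 16.3 to 10.01. Of RGS proteins and heterotrimeric G proteins 8 of 42 rose and 2 fell; Gnal, which couples striatal dopamine and adenosine receptors to cyclase, stood at 42.6 and 71.8 RPKM and its partner Gng7 at 79.1 and 155.

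Some transcription factors of the ventral forebrain rose as well. Of 25 measured factors of neuroblasts and ventral forebrain 8 rose and 0 fell, with a median of 0.08. Six3, a homeobox factor of the embryonic forebrain, stood at 0.283 RPKM in WT and 1.29 in KO. Meis2 and Pbx3, partner homeobox factors, rose from 8.15 to 19.4 and from 2.32 to 6.03 RPKM. Gad1, the GABA-synthesizing enzyme, stood at 80.7 and 72.9 RPKM (q = 0.472 in the authors' deposited table).

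Genes of retinoid signalling, through which retinoic acid controls transcription, moved in both directions. Of 18 measured members 5 rose and 2 fell. The receptors Rxrg and Rarb rose 8.84-fold and 5.11-fold, to 21.3 and 14.1 RPKM, and Crabp1, which binds retinoic acid in the cytoplasm, from 4.36 to 17.7. Cyp26b1, which degrades retinoic acid, rose from 5.01 to 10.4 RPKM. Ttr, which carries thyroid hormone and retinol-binding protein, and Aldh1a1, which makes retinoic acid, fell; Aldh1a1 went from 23.8 to 16.8 RPKM (q = 0.00506 in the authors' deposited table).

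Some further genes also rose many-fold, and the cells in which they rose cannot be told from bulk tissue. Cd4, a T cell coreceptor, went from 0.190 to 4.36 RPKM, and Ido1, which breaks down tryptophan, from 0.117 to 2.11 (q = 0.00560 in the authors' deposited table). Serpina9, a serpin, stood at 0.0794 and 2.95 RPKM (q = 0.0318 in the authors' deposited table). Nexn, an actin-binding protein, rose from 1.17 to 6.58 RPKM and Atp6ap1l, related to an accessory proton pump subunit, from 0.916 to 6.11. The Het levels of these 5 genes were 3.50, 2.25, 3.02, 4.07 and 6.57 RPKM.

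Genes of the choroid plexus fell as a group; this folded epithelium makes the cerebrospinal fluid. Of 41 measured members 32 fell and 0 rose, with a median log2 fold of -1.22. Their summed level was 2531 RPKM in WT and 289 in KO, most of it from Ttr, which fell 24.3-fold from 2028 to 83.6. The transporters and channels of the epithelium fell too. The folate receptor Folr1 went from 13.6 to 1.36 RPKM, the water channel Aqp1 from 7.73 to 0.438, and the bicarbonate transporter Slc4a5 from 1.76 to 0.0483. The tight junction gene Cldn2 fell 11.3-fold and the homeobox gene Otx2, which maintains choroid plexus identity, 14.4-fold.

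Neighbouring epithelia and coverings moved less. Of 32 genes of motile cilia and ependyma, the ciliated lining of the ventricles, 10 fell and 0 rose, with a median of -0.32. The master regulator of motile cilia, Foxj1, fell from 5.74 to 3.45 RPKM and the radial spoke gene Rsph4a from 2.74 to 1.18. Of 30 meningeal fibroblast genes 10 fell and 1 rose. Slc13a4, a sulfate transporter, fell from 5.30 to 1.03 RPKM and the matrix protein Mgp from 30.6 to 12.9. The meningeal proteoglycan Dcn stood at 31.9 and 28.5 RPKM (q = 0.504 in the authors' deposited table) and at 5.94 in Het.

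Acute phase and neutrophil genes fell as a group. Of 22 measured members 16 fell and 0 rose, with a median of -1.16. Lcn2, an iron-scavenging lipocalin made by reactive astrocytes and neutrophils, fell 59.5-fold, from 91.7 to 1.54 RPKM. S100a8 and S100a9, the paired calcium-binding proteins of neutrophils, fell from 32.7 to 1.75 and from 29.0 to 1.77 RPKM. Lrg1, a secreted acute phase glycoprotein, fell from 6.66 to 0.2498, and the chemokine Cxcl1 from 2.92 to 0.430 (q = 0.00386 in the authors' deposited table). In Het these 5 genes stood at 0.124, 0.409, 0.527, 0.165 and 0.234 RPKM in that order.

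Socs3, which curbs cytokine signalling through STAT3, fell from 5.09 to 1.11 RPKM. Its promoter is shown because STAT factors bind the palindrome TTCNNNGAA, and the 250 bases before its RefSeq start (GRCm38.p6, chr11:117969367-117969616, minus strand) hold 1 match, in capitals, at position -154.
Socs3 promoter: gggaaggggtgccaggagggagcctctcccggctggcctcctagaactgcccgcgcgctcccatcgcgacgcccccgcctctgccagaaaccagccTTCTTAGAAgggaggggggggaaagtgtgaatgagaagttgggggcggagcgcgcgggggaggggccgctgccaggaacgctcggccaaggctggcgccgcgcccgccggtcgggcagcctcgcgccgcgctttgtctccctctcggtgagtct

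Counted on both strands, where the palindrome reads the same, a match stood in the promoters of 2 of 12 acute phase genes that fell and had a promoter entry, Socs3 and Icam1. This is 16.7%, against 7.01% of 10119 measured genes with a promoter and 7.02% of all 32851 promoters. Of all 17 measured acute phase genes with a promoter entry, called or not, the same 2 held a match. Icam1, a leukocyte adhesion protein, fell from 7.92 to 2.38 RPKM and was chosen for its match after its value was seen. With so few genes these shares are descriptions, as are those for the other motifs searched.

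Falls outnumbered rises in the other immune lists. Of 12 measured complement genes 9 fell, with a median of -0.66. Factor B, Cfb, which forms the alternative pathway convertase, went from 2.16 to 0.429 RPKM, the C1 protease C1ra from 1.28 to 0.246, and the opsonin C4b from 3.98 to 1.72. Of 27 interferon-stimulated genes 7 fell and 0 rose, led by the antiviral membrane proteins Ifitm1, from 15.4 to 2.39 RPKM, and Ifitm3, from 30.6 to 11.2. Stat2, which carries the interferon signal, had a log2 fold of 0.02 (q = 0.940 in the authors' deposited table). Of 22 antigen presentation genes 4 fell and 0 rose, among them H2-K1, a class I heavy chain, from 20.5 to 10.3 RPKM, and its light chain B2m, from 102 to 67.0. Of 44 chemokines, interleukins and their receptors 10 fell and 2 rose, and of 19 S100 and annexin genes, which include S100a8 and S100a9, 5 fell and 3 rose.

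Astrocyte and microglia genes were divided. Of 23 reactive astrocyte genes 9 fell and 0 rose, including the copper oxidase Cp, from 9.16 to 2.29 RPKM, and the protease inhibitor Serpina3n, from 106 to 47.4. Gfap and Vim, the intermediate filaments of reactive astrocytes, stood at 168 and 171 and at 40.2 and 42.1 RPKM (q = 0.922 and 0.812 in the authors' deposited table). Of 27 microglia genes 11 fell and 4 rose. The lysosomal protease Ctss fell from 84.9 to 30.6 RPKM and complement C1qb from 84.3 to 49.5, while the fractalkine receptor Cx3cr1 rose from 13.7 to 22.3. Csf1r, the receptor microglia need to survive, stood at 41.4 and 37.0 RPKM (q = 0.426 in the authors' deposited table).

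Genes that respond to glucocorticoids fell in 19 of 36 measured members and rose in 1, with a median of -0.38. The sulfotransferase Sult1a1 fell from 14.5 to 3.66 RPKM, the stress-induced actin regulator Fam107a from 146 to 64.5, and the angiotensin precursor Agt from 32.0 to 13.7. Fkbp5, a co-chaperone that restrains the glucocorticoid receptor, fell from 23.05 to 15.3 RPKM. The metallothionein Mt1 fell from 432 to 320 RPKM (q = 0.00560 in the authors' deposited table). Its neural relative Mt3 stood at 614 and 699 (q = 0.328 in the authors' deposited table). The list shares Lcn2 with the acute phase genes and Agt and Fam107a with the astrocyte list, of which 5 of 35 measured members fell and 1 rose.

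Vessel genes were mixed. Of 33 endothelial genes 10 fell and 2 rose. Those that fell included Ly6a, a surface protein, from 17.3 to 6.27 RPKM, and the glucose transporter Slc2a1, from 58.1 to 39.9. Of the defining endothelial markers Cldn5 rose (q = 0.00179 in the authors' deposited table). Pecam1 and Flt1 were not called (q = 0.977 and 0.483 in the authors' deposited table). Of 18 pericyte and smooth muscle genes 4 rose and 1 fell, including the growth factor receptor Pdgfrb, from 4.82 to 6.58 RPKM (q = 0.0150 in the authors' deposited table).

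Genes of the cytosolic ribosome rose almost throughout. Of 78 measured ribosomal protein genes 65 rose and 0 fell, with a median log2 fold of 0.50. Their sum was 29990 RPKM in WT and 43445 in KO, or 6.54% and 9.15% of the RPKM of all genes. Rps19, of the small subunit, rose from 226 to 416 RPKM, and Rpl41, the shortest protein of the large subunit, from 1021 to 1787. Rpl3, Rpl7a and Rpl4 had log2 folds of 0.28, 0.14 and 0.32 (q = 0.121, 0.506 and 0.0647 in the authors' deposited table). Het levels lay between those of WT and KO for Rps19 (315) and Rpl41 (1412). Many ribosomal protein genes have near-identical processed copies elsewhere in the genome, and how reads shared with these were counted is not given, so single values in this family are uncertain.

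In the lists of the respiratory chain, the mitochondrial ribosome and the spliceosome given here smaller shares rose and none fell. In the respiratory chain and ATP synthase, which make ATP in mitochondria, 13 of 37 complex I genes, 4 of 10 of complex III and cytochrome c, 3 of 16 of complex IV and 5 of 18 of the ATP synthase rose, and 0 fell. Ndufa2, of complex I, rose from 120 to 187 RPKM and Cox7c, of complex IV, from 220 to 325. Of 77 mitochondrial ribosomal protein genes 12 rose and 0 fell, and of 79 spliceosome genes 13 rose and 0 fell, with Snrpg, a core ring protein, at 99.3 and 166 RPKM. Translation factors numbered 10 higher and 1 lower of 67, and proteasome subunits 4 higher and 0 lower of 46, or 8.70%, near the share over all measured genes. Of 21 subunits of the V-ATPase, the proton pump of vesicles, 1 rose and 3 fell. Of 245 ubiquitin enzymes 5 rose and 15 fell, or 2.04% and 6.12%, both under the shares of 6.82% and 7.65% over all measured genes. The TCA cycle, which feeds the chain, held 1 fall and 0 rises among 32 genes.

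Genes of immature neurons rose in 20 of 40 measured members and fell in 0, with a median of 0.38. Nrep, a small protein of growing and regenerating neurons, rose from 202 to 439 RPKM, and its Het level was 308. Stmn1, which destabilizes microtubules in growing axons, rose from 386 to 750, and the thymosin Tmsb10 from 317 to 595. Fabp7, the fatty acid binding protein of radial glia, stood at 226 and 403 RPKM. Of 21 measured tubulins 4 rose and 1 fell. Those of young neurons, Tubb2b, Tubb3 and Tuba1a, rose to 610, 607 and 1676 RPKM from 406, 430 and 1127 (q = 0.00506 and 0.00780 for Tubb3 and Tuba1a in the authors' deposited table). Stmn2 and Tubb2a had log2 folds of 0.24 and 0.07 (q = 0.278 and 0.833 in the authors' deposited table).

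Cell cycle genes rose at low levels. Of 61 measured members 17 rose and 0 fell, with a median of 0.32. Top2a, which untangles replicated DNA, rose from 2.41 to 5.15 RPKM, the proliferation marker Mki67 from 1.39 to 2.86, and Uhrf1, which copies DNA methylation after replication, from 1.08 to 2.68. The helicase subunits Mcm5 and Mcm3 rose from 1.97 to 4.13 and from 1.73 to 3.53 RPKM. Pcna and Cdk4 had log2 folds of 0.16 and 0.19 (q = 0.457 and 0.353 in the authors' deposited table).

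E2F factors switch on replication genes through TTTCCCGC or TTTGGCGC, and the promoter of the helicase gene Mcm6 is shown because it holds 2 matches that do not overlap, at -110 and -47, in capitals. It covers the 250 bases before the RefSeq start (GRCm38.p6, chr1:128359706-128359955, minus strand). Mcm6 was chosen for its matches and rose from 6.55 to 9.01 RPKM (q = 0.0236 in the authors' deposited table).
Mcm6 promoter: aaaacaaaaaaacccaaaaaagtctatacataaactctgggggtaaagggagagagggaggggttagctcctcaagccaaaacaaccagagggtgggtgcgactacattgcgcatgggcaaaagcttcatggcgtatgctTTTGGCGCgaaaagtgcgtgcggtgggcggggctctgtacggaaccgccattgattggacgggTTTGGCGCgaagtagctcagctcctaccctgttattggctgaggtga

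Of 15 cell cycle genes that rose and had a promoter entry, 2 held a match on either strand, Mcm5 and Mcm6, which is 13.3% against 2.69% of measured genes and 1.30% of all promoters. The ETS motif CCGGAAGT stood in 0 of 12 promoters of complex I genes that rose and in 7 of 47 of ribosomal protein genes that rose (14.9%), against 6.22% of measured genes and 2.88% of all promoters. The cyclic AMP response element TGACGTCA stood in 1 of 10 promoters of immediate early genes that rose, against 3.03% and 1.55%. The CCAAT box CCAAT stood in 5 of 6 promoters of cholesterol genes that rose, against 40.3% and 33.8%. All were read on both strands. Among all measured list members with a promoter entry, called or not, a match stood in 4 of 48 cell cycle genes and 8 of 56 ribosomal protein genes. It stood in 0 of 33 complex I, 7 of 44 immediate early and 21 of 28 cholesterol genes.

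Layer genes of the cortex moved in both directions. Of 35 deep layer genes 12 rose and 2 fell, with a median of 0.17. The synaptotagmin Syt6 rose from 2.70 to 8.87 RPKM and Pcp4, a calmodulin regulator, from 264 to 477. Foxp1 and Foxp2, forkhead factors of deep layers and of striatum, rose to 25.98 and 3.94 RPKM from 14.2 and 0.852, and Sulf1, an extracellular sulfatase, fell from 6.72 to 1.14. Upper layer genes numbered 4 higher and 4 lower of 28, with Lamp5 from 9.51 to 17.2 RPKM and Wfs1 from 38.5 to 20.9. Of 20 genes of subplate, layer 6b and claustrum 6 rose and 0 fell, including Nxph3, a neurexin ligand, from 5.33 to 11.2 RPKM.

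Hippocampal and thalamic genes fell more often than they rose. Of 28 hippocampal genes 7 fell and 0 rose, such as the desmosome gene Pkp2, from 15.9 to 6.97 RPKM. Of 23 thalamic genes 11 fell and 3 rose, with a median of -0.35. Tcf7l2, the Wnt effector that marks thalamus, fell from 7.63 to 1.62 RPKM and the zinc finger gene Zic1 from 7.72 to 3.37. The thalamic vesicular glutamate transporter Slc17a6 stood at 12.6 and 15.03 (q = 0.207 in the authors' deposited table). The 3 thalamic list members that rose, Nexn, Foxp2 and Six3, include 2 that are also on the ventral forebrain list, Foxp2 and Six3.

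General genes of excitatory neurons fell in 7 of 26 members and rose in 2. Slc17a7, the vesicular glutamate transporter of cortical neurons, fell from 575 to 393 RPKM, and Nptx1, a pentraxin that clusters AMPA receptors, from 79.8 to 39.2. Camk2a, the abundant kinase of excitatory synapses, stood at 847 and 650 RPKM (q = 0.243 in the authors' deposited table). Interneuron genes numbered 5 higher and 7 lower of 41. The potassium channel Kcnc2 of fast-spiking cells fell from 15.3 to 8.58 RPKM, and the peptides Sst and Cck stood at 331 and 338 and at 386 and 368 (q = 0.919 and 0.786 in the authors' deposited table).

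Genes of vesicle release and of the postsynaptic density fell more often than they rose. Of 60 genes of presynaptic vesicle release 13 fell and 5 rose. Syn2, a synapsin that tethers vesicles, fell from 252 to 161 RPKM, the endophilin Sh3gl2 from 146 to 87.3, and Dnm1, the dynamin of vesicle retrieval, from 280 to 188. Of 49 postsynaptic density genes 8 fell and 1 rose, such as the scaffold Dlgap2, from 10.97 to 6.71 RPKM. The fusion proteins Snap25 and Vamp2 had log2 folds of -0.30 and -0.10 (q = 0.181 and 0.695 in the authors' deposited table).

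Lists of receptors and channels differed in their counts. AMPA receptors and their partners fell in 6 of 25 members and rose in 2, with Gria2, the subunit that blocks calcium entry, at 155 and 107 RPKM (q = 0.00179 in the authors' deposited table). NMDA receptors and metabotropic glutamate receptors each held 1 rise and 1 fall, among 6 and 7 members, and of 27 adenosine and purine receptors 3 rose and 0 fell. Among 12 GABA-A receptor genes 3 fell and 1 rose, Gabrd, the subunit of tonic inhibition, from 6.55 to 15.9 RPKM. Of 11 serotonin receptors 5 fell and 1 rose. Htr2c, which choroid plexus also expresses, fell from 19.4 to 10.3 RPKM, and Htr1d rose from 0.319 to 1.18. Of 74 potassium channel genes 21 fell and 7 rose, including Kcnj6, a G-protein-gated channel, from 10.8 to 5.85 RPKM, and Kcnh4 from 0.459 to 2.18. Of 39 neuropeptide genes 5 rose and 3 fell, and of 29 of their receptors 5 rose and 6 fell. Nts, the neurotensin precursor, stood at 13 RPKM in WT, 7.51 in Het and 42.6 in KO.

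Immediate early genes, which neurons induce within minutes of firing, rose in 14 of 56 members and fell in 4, with a median of -0.01. Npas4 rose from 3.40 to 5.87 RPKM, the phosphatase Dusp4 from 7.15 to 13.1 and the matrix protein Cyr61 from 7.42 to 14.2. Ptgs2, named above among the published targets, fell from 6.75 to 1.74 RPKM, the largest change on this list. Scg2, a granin of secretory vesicles, and the kinase Plk2 stood at 127 and 108 and at 89.6 and 85.9 RPKM (q = 0.217 and 0.806 in the authors' deposited table).

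Genes of the oligodendrocyte lineage moved in both directions. Of 16 precursor genes 4 rose and 0 fell, with Gpr17, a receptor of cells about to differentiate, at 16.8 and 26.8 RPKM. Of 31 myelin and oligodendrocyte genes 8 fell and 2 rose. Mbp, myelin basic protein, stood at 641 RPKM in WT, 907 in Het and 461 in KO, and fell in KO (q = 0.0158 in the authors' deposited table).

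Among metabolic genes, cholesterol synthesis and uptake held 9 rises and 1 fall in 39 members, with a median of 0.15. Fdps, which makes farnesyl diphosphate, rose from 65.3 to 96.3 RPKM and the decarboxylase Mvd from 18.8 to 29.2. Of 26 iron and metal transport genes 11 fell and 2 rose; the ferroxidase Heph fell from 2.29 to 0.747 RPKM and the ferritin light chain Ftl1 rose from 407 to 616. Of 41 imprinted genes 9 fell and 2 rose, among them the growth regulators Igf2, from 39.8 to 26.7 RPKM, and Plagl1, from 9.62 to 5.84.

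The calls in some further families were as follows, beside 6.82% of all measured genes that rose and 7.65% that fell. None of 55 measured clustered protocadherins, which give neurons their surface identity, was called, with a median of 0.09; none of 9 hedgehog pathway genes was called either. Of 254 solute carriers, the membrane transporters, 14 rose and 33 fell, or 5.51% and 12.99%. Of 362 zinc finger genes 6 rose and 13 fell, or 1.66% and 3.59%, both under the shares over all measured genes. Of 24 circadian genes 1 rose (4.17%), and of 33 Notch pathway genes 2 rose and 1 fell (6.06% and 3.03%). These calls come from the authors' own test, and no other test could be run on pooled values.

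The chromosomal surroundings of Mir137 were read over the 20 protein-coding genes on each side in RefSeq order. Of the 35 measured, 4 rose and 5 fell, with a median of -0.09. Within 10 genes on each side 0 of 17 measured rose and 2 fell. These were F3, the tissue factor of coagulation, from 21.8 to 15.1 RPKM (q = 0.00254 in the authors' deposited table), and D3Bwg0562e, from 101 to 78.0 (q = 0.0352 in the authors' deposited table). Changed neighbours farther away included Dph5 19 and Slc30a7 18 genes before Mir137, and Abca4 12, Fnbp1l 16, 1810037I17Rik 19 and Usp53 20 genes after it. Fnbp1l, which shapes membranes with actin, rose from 29.6 to 46.1 RPKM, and Abca4, a lipid flippase, fell from 1.06 to 0.210. Dph5, an enzyme that modifies elongation factor 2, Slc30a7, a zinc transporter, and Usp53 had log2 folds of 0.51, -0.32 and -0.41 (q = 0.0162, 0.0315 and 0.0184 in the authors' deposited table). D3Bwg0562e, Fnbp1l, 1810037I17Rik and Usp53 were named after their values were seen.

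**Figure D4:**
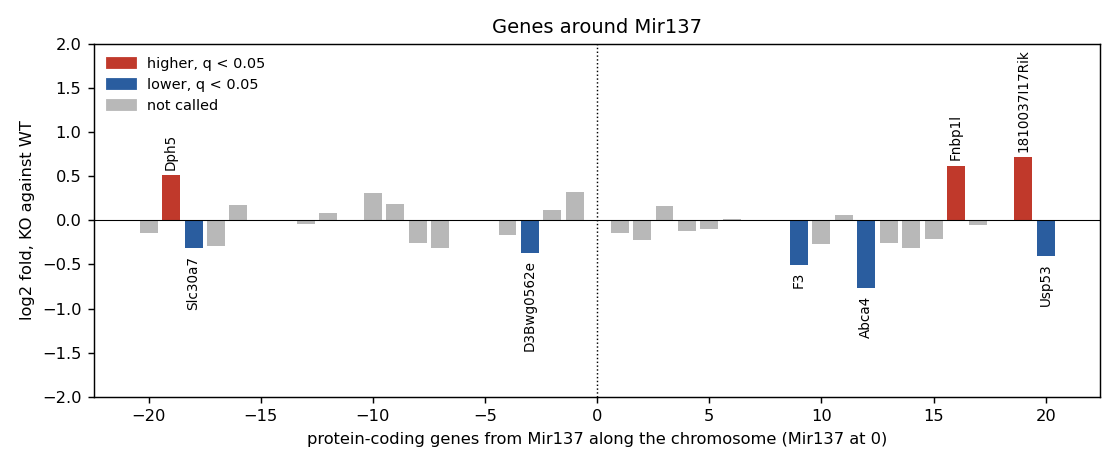
Bars give the log2 fold (KO minus WT) of measured genes among the 20 protein-coding genes on each side of Mir137, not all of which are shown, placed by their order on the chromosome, with genes that rose in red and genes that fell in blue. The bars shown lie between -0.77 and 0.72.

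Some entries that were called lower were listed at 0 in KO. Mir6236 was listed at 1717 RPKM in WT and 0 in KO, Mir568 at 294 and 0 (q = 0.00386 in the authors' deposited table), the predicted gene Gm20594 at 205 and 0, and Mir8091 at 27.4 and 0 (q = 0.0318 in the authors' deposited table). Of 173 measured entries with names of short RNAs 121 were listed at 0 in KO and 6 in WT. In Het, Mir6236 stood at 2121 RPKM, Mir568 at 314, Gm20594 at 156 and Mir8091 at 12.6. Of the measured entries listed at 0 in KO 5 were called. A value of 0 in such a table can be a failed estimate, which the pooled values do not settle, and no fold is given for an entry listed at 0.

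KO and Het cortex were also compared directly by the authors, and this comparison uses the same KO libraries. Of 13554 genes measured in it, 1.9% were called, 126 higher and 132 lower in KO. The 6 defining striatal markers were not among them, with q from 0.301 for Rgs9 to 0.998 for Drd1a in the authors' deposited table; Rgs9 stood at 30.9 RPKM in Het and 50.3 in KO. Of the choroid plexus genes, Ttr stood at 2028 RPKM in WT, 281 in Het and 83.6 in KO, and Enpp2, which makes lysophosphatidic acid, at 139, 46.8 and 25.0, both lower in KO than in Het (q = 0.00517 in the authors' deposited table).

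Genes known from deep cortical cells were among those higher in KO than in Het. Besides Nts, Nr4a2 stood at 10.8, 8.17 and 18.0 RPKM in WT, Het and KO, the relaxin receptor Rxfp1 at 1.28, 0.925 and 4.75, Nxph3 at 5.33, 5.67 and 11.2, and the homeobox gene Tshz2 at 6.03, 2.33 and 10.8. Tshz2 was 1 of 9 genes that rose against WT among 43 homeobox factors, of which 1 fell. Among 22 keratins and intermediate filaments, 3 of which rose and 3 fell against WT, Prph stood at 4.73, 5.80 and 14.1 RPKM. Each of these 6 genes had a q of 0.00517 for KO against Het in the authors' deposited table, the smallest it holds. Ybx3 had the same value, and Ybx1 and Nrep were higher in KO than in Het at 0.0265 in the authors' deposited table. Lower in KO than in Het at 0.00517 in the authors' deposited table were Mbp, Nptx1 (65.6 and 39.2 RPKM), the peptide receptor Npy2r (15.8 and 9.59) and the microglial gene Olfml3 (9.47 and 4.35).

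**Figure D5:**
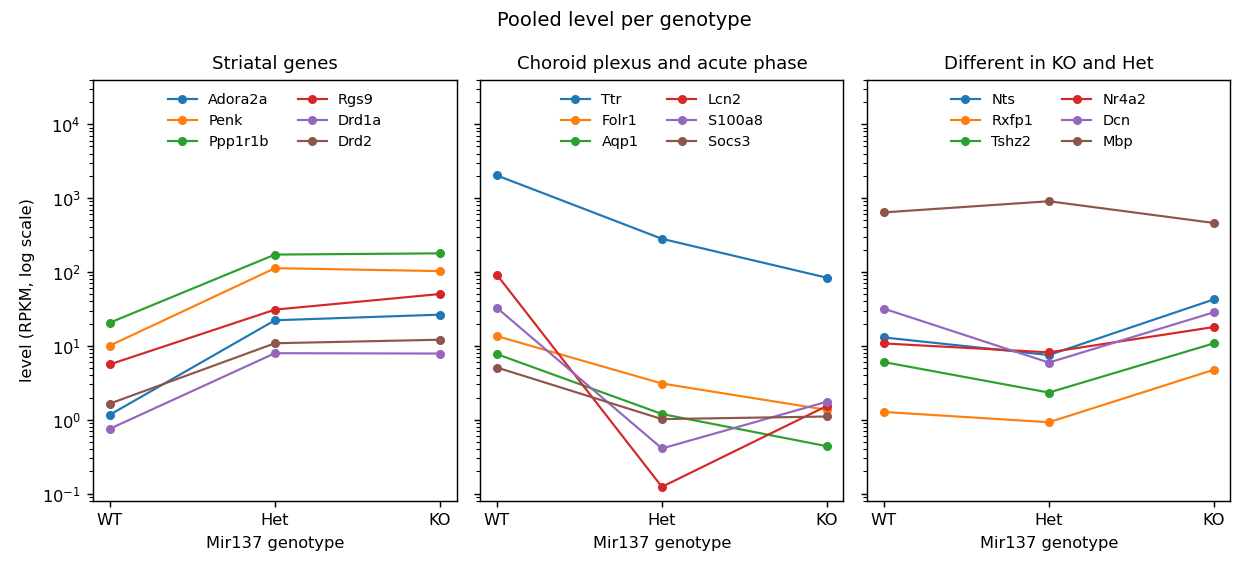
Points give the authors' pooled level (RPKM, log axis) in WT, Het and KO for 6 striatal genes, 6 genes of choroid plexus and the acute phase, and 6 genes called different in KO and Het, with lines joining the values of a gene. Ppp1r1b stood at 20.6, 172 and 179 RPKM, Ttr at 2028, 281 and 83.6, and Nts at 13, 7.51 and 42.6.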

How the data were processed

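Cortex was sequenced from TruSeq RNA v2 libraries read as paired ends, per the labels' protocols, with 4 libraries per genotype; titles gave the groups. The kit does not mark strand, so reads of overlapping antisense genes cannot be told apart. Per the submitters' processing notes, CASAVA 1.4, TopHat2 2.0.13 and Cuffdiff 2.2.1 were used with the build mm9; the role of each tool and the annotation were not stated there. Per the file headers, the deposited table of KO against WT holds the authors' RPKM per genotype, pooled over libraries, with a p-value and a q-value from the authors' own test. A Benjamini-Hochberg adjustment of the deposited p-values below 1 gave the same q within 5.3e-07, and the smallest p is 5e-05. The authors' log2 fold column has spreadsheet errors and was replaced by folds of the RPKM. No column was left without a genotype (0). Of 23951 entries 99 name several genes and 27 had turned into dates; both kinds stayed in the counts and none is named. The same genotype differed between the deposited tables by a median of 0.0573% (WT) and 0.473% (KO), so each test was read within its table.

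Pooled values allow no expression test, and none was run. Log2 folds used a pseudocount of 1 and calls a q below 0.05 over the whole table. Read depth per library is unknown. The members and the 138 lists were chosen with earlier results of these data known, and lists share genes. Named genes are Mir137, Dpyd, Pde10a and called published targets and neighbours; the 15 largest rises and falls; the 10 most abundant called genes each way; called genes under 0.5 RPKM in 1 genotype and at least 2 in the other; per described list up to 6 called members by smallest q and 3 others by level; and defining markers. Exceptions are stated beside the gene. Mature miRNA and promoter sequences came from RefSeq GRCm38.p6, and 3′ UTRs from GENCODE M21 (GRCm38), matched on gene symbol; coordinates of the expression tables are not given, since their build differs. A site class counts a gene once, by its strongest site. The counting of calls, sites and motifs was checked on made-up values and sequences with known answers. That check does not bear on the authors' q. Alternatives were no minimum and a minimum of 5 RPKM, a pseudocount of 0.1, a q below 0.01, a minimum absolute log2 fold, intact single names and adjustment over 3 tables. Python 3.11.15, numpy 2.4.6, pandas 2.3.3 and matplotlib 3.10.9 were used. Some genes of the tables are not reported here.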

Additional observations from a re-analysis of the deposited data

How the results depend on the processing

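No paired analysis was possible because the deposited values are pooled per genotype; leaving out a library or fitting a replicate block could not be done for the same reason. The 1975 calls became 1124 at an adjusted p below 0.01, 894 with an absolute log2 fold of at least 0.5 and 141 with at least 1. The 931 higher calls became 495, 410 and 49 under these settings, and the 1044 lower calls 629, 484 and 92. Other settings left between 1520 calls (minimum of 5 RPKM) and 2025 (no minimum). Adjustment over the 3 tables together left 1699. Without members of the ribosomal protein, striatal, choroid plexus and acute phase lists, a setting chosen after seeing the data, 825 genes were higher and 993 lower. The median log2 fold of all genes stayed between 0.00 and 0.02. Leaving aside changes of sign where either value lay near 0, the medians of 3 lists changed sign. At a minimum of 5 RPKM midbrain monoamine genes went from 0.18 to -0.48 and chemokines and interleukins from -0.16 to 0.11. Cholinergic genes went from -0.32 to 0.21 with no minimum. Under the list settings a further 40 list medians moved without such a reversal. Among the counts of calls per list and direction 174 moved and 1482 stayed alike. Most that moved did so at q below 0.01 (104) or at a minimum of 5 RPKM (67). The causes were not tested. Unknown depth limits what can be said of genes near 1 RPKM.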

Other observations

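Among RIKEN clone names, A930005H10Rik stood at 8.13 RPKM in WT, 16.8 in Het and 20.3 in KO, and was called higher in KO. Of 593 such entries measured, 28 rose and 26 fell, or 4.72% and 4.38%, against 6.82% and 7.65% of all measured genes. Of 30 long noncoding RNAs 2 rose and 3 fell; Snhg6, a host gene of small nucleolar RNA, stood at 49.2 RPKM in WT, 76.0 in Het and 89.3 in KO. Eif2s3y was the 1 member called, higher in KO, of 9 measured genes of the sex chromosomes (14.3 and 21.3 RPKM, q = 0.0184 in the authors' deposited table). Xist stood at 36.7, 34.3 and 34.4 RPKM in WT, Het and KO. The sex of the animals is not given in the labels.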
